A study of Mus musculus with 47 samples.

Results

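The expression of cytochrome P450 genes of families 1 to 4 was followed in crypts and in villi of mouse small intestine. The members were the array's probe sets whose only gene symbol was Cyp, a family number from 1 to 4, a subfamily letter and a gene number, with pseudogenes left out. This gave 68 probe sets for 55 genes, of 45101 probe sets on the array and 18194 genes with a probe set of a single symbol. The series set crypts, the proliferative compartment of the epithelium, beside villi, which carry the differentiated cells, in C57BL/6 mice with a genetic or a dietary risk factor for intestinal tumours. In the genetic arm the mice were 3 months old, had eaten the purified diet Ain76A for 3 months, and were wild type, Apc1638N/+ (1 mutant allele of the tumour suppressor gene Apc) or p21-/- (without the cell cycle inhibitor p21). In the diet arm the mice were wild type with a labelled age of 1 year, and had been kept since weaning on Ain76A, NWD1 or NWD2 for 1 year. The composition of NWD1 and NWD2 is not given in the labels. Each of the 12 groups of tissue and condition had 4 arrays except NWD2 villi with 3, which made 24 crypt and 23 villus arrays. The labels do not state that arrays of a group came from separate animals, so p-values measure the spread between these samples, which may be technical.

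Cytochrome P450 enzymes are heme proteins, most of them held in the membrane of the endoplasmic reticulum, that insert an oxygen atom into fat-soluble molecules with electrons passed on by P450 reductase and cytochrome b5. Families 1, 2 and 3 are best known for clearing drugs and food-borne compounds, and family 4 for hydroxylating fatty acids, while several Cyp2c and Cyp2j enzymes turn arachidonic acid into epoxides. In the small intestine, absorptive enterocytes of the villus are the main site of Cyp3a and of the first-pass metabolism of swallowed drugs. Many of these genes answer to ligand-activated factors: family 1 to the aryl hydrocarbon receptor Ahr, Cyp2b10 to the receptor CAR (Nr1i3), Cyp3a11 to the receptor PXR (Nr1i2), and Cyp4a genes to PPAR alpha (Ppara).

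Promoters of 43 of the 55 genes were in the RefSeq promoter table (GRCm38.p6), and the 250 bases before each start were searched on both strands for short elements of factors that act on P450 genes. The element CAAAGTCCA, bound by the liver and gut factor HNF4, was in 0.384% of 32851 promoters and in 5 of the 43 (Cyp2c65, Cyp2c68, Cyp2c70, Cyp3a11 and Cyp3a16). The core GCGTG, bound by Ahr, was in 28.2% of promoters and in 10 of the 43, Cyp1a1 and Cyp1b1 among them. The nuclear receptor hexamer AGGTCA was in 14.0% of promoters and in 11 of the 43, and its variant AGTTCA was in 11.8% and in 5. The TATA box TATAAA was in 12.4% of promoters and in 17 of the 43. The palindromic element of HNF1 was in 3 promoters in all and in 0 of the 43. No motif overlapped another among the shown matches. The percentages count promoters, while a member gene was counted once if any of its promoters held the match, so the 2 are not in the same unit. A match is a description of letters. The genes are also neighbours: of 54 members found in the RefSeq gene table, 33 lay next to another member.

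The promoters printed here belong to 4 genes with a value on every array that were higher in crypts on NWD2 than on Ain76A. They were chosen after their values and matches were seen: Cyp2b10 as the standard target of CAR, and the 3 tested genes that hold the HNF4 element. Each runs 5′ to 3′ along the gene's strand, and capitals mark the matches, read as the reverse complement where the match is on the other strand. The positions are chr7:25897408-25897657 (plus strand) for Cyp2b10, chr19:39060756-39061005 (plus strand) for Cyp2c65, chr19:39741102-39741351 (minus strand) for Cyp2c68 and chr5:145879855-145880104 (minus strand) for Cyp3a11.
Cyp2b10: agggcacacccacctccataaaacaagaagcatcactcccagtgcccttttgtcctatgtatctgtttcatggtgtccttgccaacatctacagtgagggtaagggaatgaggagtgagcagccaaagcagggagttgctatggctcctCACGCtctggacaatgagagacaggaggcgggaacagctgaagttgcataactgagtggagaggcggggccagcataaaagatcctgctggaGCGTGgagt
Cyp2c65: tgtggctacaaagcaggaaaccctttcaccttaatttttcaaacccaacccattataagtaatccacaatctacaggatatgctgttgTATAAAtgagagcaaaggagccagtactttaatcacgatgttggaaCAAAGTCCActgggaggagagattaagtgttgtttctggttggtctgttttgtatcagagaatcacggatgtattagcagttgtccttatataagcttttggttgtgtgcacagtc
Cyp2c68: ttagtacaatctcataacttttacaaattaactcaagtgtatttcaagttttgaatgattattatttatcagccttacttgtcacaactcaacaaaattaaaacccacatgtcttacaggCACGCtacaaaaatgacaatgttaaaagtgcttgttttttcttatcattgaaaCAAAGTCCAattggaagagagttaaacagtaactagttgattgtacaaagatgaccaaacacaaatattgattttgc
Cyp3a11: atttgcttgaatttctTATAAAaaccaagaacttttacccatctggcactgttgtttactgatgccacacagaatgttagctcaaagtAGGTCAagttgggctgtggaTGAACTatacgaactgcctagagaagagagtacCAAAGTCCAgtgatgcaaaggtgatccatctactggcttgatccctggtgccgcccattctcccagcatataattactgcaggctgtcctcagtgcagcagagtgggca
In Cyp2b10 both capital runs are the core GCGTG, on opposite strands. The first base of CAAAGTCCA lies at -116 from the start in Cyp2c65, at -77 in Cyp2c68 and at -109 in Cyp3a11. Cyp2c65 and Cyp3a11 also hold TATAAA, at -162 and -234. Cyp3a11 further holds AGGTCA at -162 and, on the other strand, AGTTCA at -142, and Cyp2c68 holds GCGTG on the other strand at -130.

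Levels are normalized log2 values, and a difference of 1 on this scale is a 2-fold difference. The value table left 55.2% of all cells blank for a reason not given in the sources used here, and a blank was treated as no value, not as a zero. Between 14814 and 23355 probe sets had a value on an array. Mean log2 levels of the 4 proliferation markers with a value on every array (Cks1b, Mcm7, Stmn1 and Top2a) did not overlap between the tissues. They ranged from 11.04 to 13.02 on crypt arrays and from 8.16 to 10.66 on villus arrays. Mean log2 levels of the 14 enterocyte markers with a probe set ranged from 12.87 to 15.15 on crypt arrays and from 14.49 to 15.40 on villus arrays, with overlap. In bulk tissue, fewer cells of a type and less RNA per cell cannot be told apart, which holds for each difference below. Wild-type crypt arrays 2 and 4, NWD1 villus arrays 1 and 2 and NWD2 villus array 1 lay toward the other tissue in their groups by at least 1 of the lists, and counts without these 5 arrays are given where they differ. NWD2 crypt array 3 had the highest enterocyte mean (15.15) and the lowest proliferation mean (11.04) of the 24 crypt arrays, and the NWD2 crypt results are given without it too. NWD2 crypt arrays 2 and 4 had enterocyte means of 14.86 and 14.64 and proliferation means of 11.55 and 11.61. These were near the 14.76 and 11.59 of wild-type crypt array 4, but neither array was among the 5.

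Of the 55 genes, 15 had a value on every array, 35 on some arrays and 5 on none. Family 1, the classic Ahr targets, was measured least: Cyp1a1 had a value on 10 of 47 arrays, Cyp1a2 on 1 and Cyp1b1 on 4. Family 3 was measured most, with 3 of its 5 genes (Cyp3a11, Cyp3a13 and Cyp3a25) on every array. In family 2, 7 of 35 genes were on every array: Cyp2b10, Cyp2c55, Cyp2c65, Cyp2c68, Cyp2d26, Cyp2j6 and Cyp2s1. In family 4, 5 of 12 genes were: Cyp4b1, Cyp4f13, Cyp4f14, Cyp4f16 and Cyp4v3. Cyp2a12, Cyp2c39, Cyp2j11, Cyp4a12a and Cyp4f18 had no value on any array. A filter that asks for a value above the array's median on at least 3 arrays was passed by 26 probe sets of 20 genes, none of them in family 1. A gene high in 1 group could pass through that group alone, so counts over these genes do not speak for all 55.

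**Figure D1:**
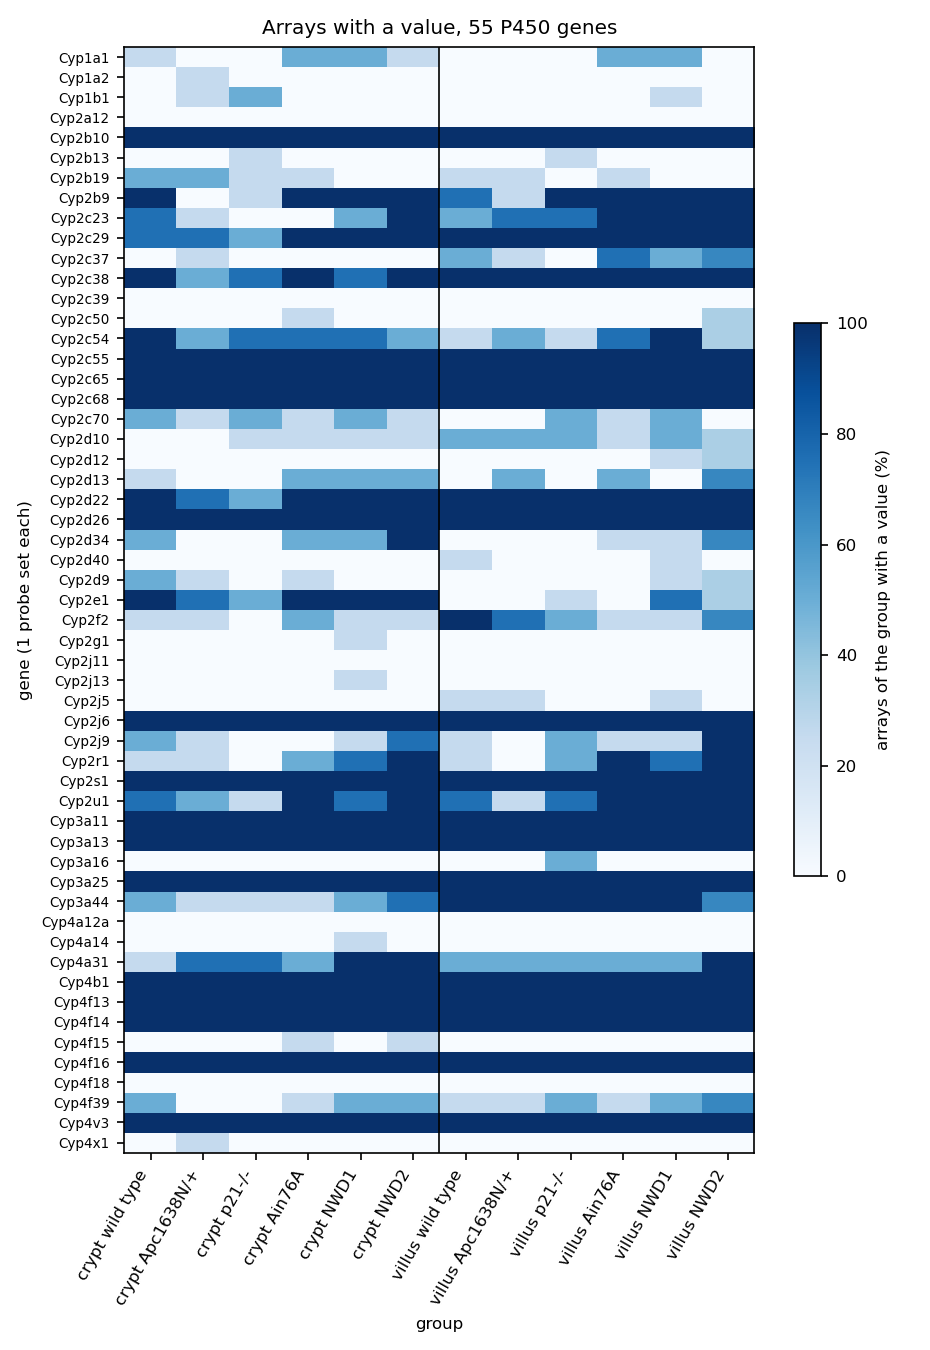
Share of the arrays of each group with a value (colour, in percent) for the 55 P450 genes (vertical axis, 1 probe set each) in the 12 groups (horizontal axis). The 15 genes on every array are at the full share throughout, Cyp2e1 has values on 21 crypt and 5 villus arrays, and Cyp3a44 on 10 crypt and 22 villus arrays.

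Along the crypt to villus axis, most of the tested P450 genes passed the test as higher in villi in Apc1638N/+ and p21-/- mice and on Ain76A and NWD1, 7 of 18 did in wild type and 1 of 19 did on NWD2. Cyp3a13, a drug- and steroid-metabolizing enzyme, was higher in villi in 6 of 6 conditions, and Cyp3a11, Cyp4f13, Cyp4f16 and Cyp4v3 were in 5 of 6. Cyp3a25, Cyp4b1, Cyp4f14 and Cyp2d26 were higher in villi in 4 of 6 conditions, and Cyp2d22 in 4 of the 5 where it could be tested. Cyp2c68 was higher in villi in 3 conditions, and Cyp2b10, Cyp2c29, Cyp2c55, Cyp2c65 and Cyp2j6 in 2 each. Cyp2s1, Cyp2u1 and Cyp2c23 passed the test as higher in villi in 0 of the 6, 4 and 1 conditions where they were tested. These calls are from limma at an adjusted p under 0.05 for the best measured probe set of each gene.

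In wild-type mice limma called 9 of 24 member probe sets (7 of 18 genes) lower in crypts, where 27.9% of all 12543 probe sets tested were called that way. In Apc1638N/+ mice 15 of 21 were called, against 42.2% of all: 14 (11 of 17 genes) were lower in crypts and 1, Cyp2s1, was higher, where 21.2% of all probe sets were called higher. In p21-/- mice 17 of 19 (13 of 15 genes) were lower in crypts, against 22.4% of all. These shares of members in the mutants were above the share of all probe sets, and in wild type the share lay nearer to it.

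On Ain76A at 1 year 20 of 23 (16 of 18 genes) were lower in crypts, against 30.3% of all. On NWD1 15 of 24 (11 of 18 genes) were, against 24.7%. On NWD2 1 of 25 (1 of 19 genes) was, against 7.04%. The NWD2 share was thus close to that of all probe sets.

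The median log2 difference, crypt minus villus, over the tested genes was -0.69 in wild type, -1.45 in Apc1638N/+, -1.96 in p21-/-, -2.11 on Ain76A, -1.50 on NWD1 and -0.72 on NWD2. Over all probe sets the medians lay between -0.14 and -0.02. Of the 14 enterocyte markers, 5, 8, 10, 14, 11 and 2 were lower in crypts in the same order of conditions, and their part in the P450 differences was not tested. Without the 5 arrays named above, 14 probe sets were lower in wild-type crypts. Without NWD2 villus array 1 the NWD2 count was 8 and without NWD2 crypt array 3 it was 4, while without NWD2 crypt array 1, NWD2 villus array 2 or NWD2 villus array 3 it was 0. With an array left out, a group needed 1 value fewer, so NWD2 villi were then tested on 2 values.

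**Figure D2:**
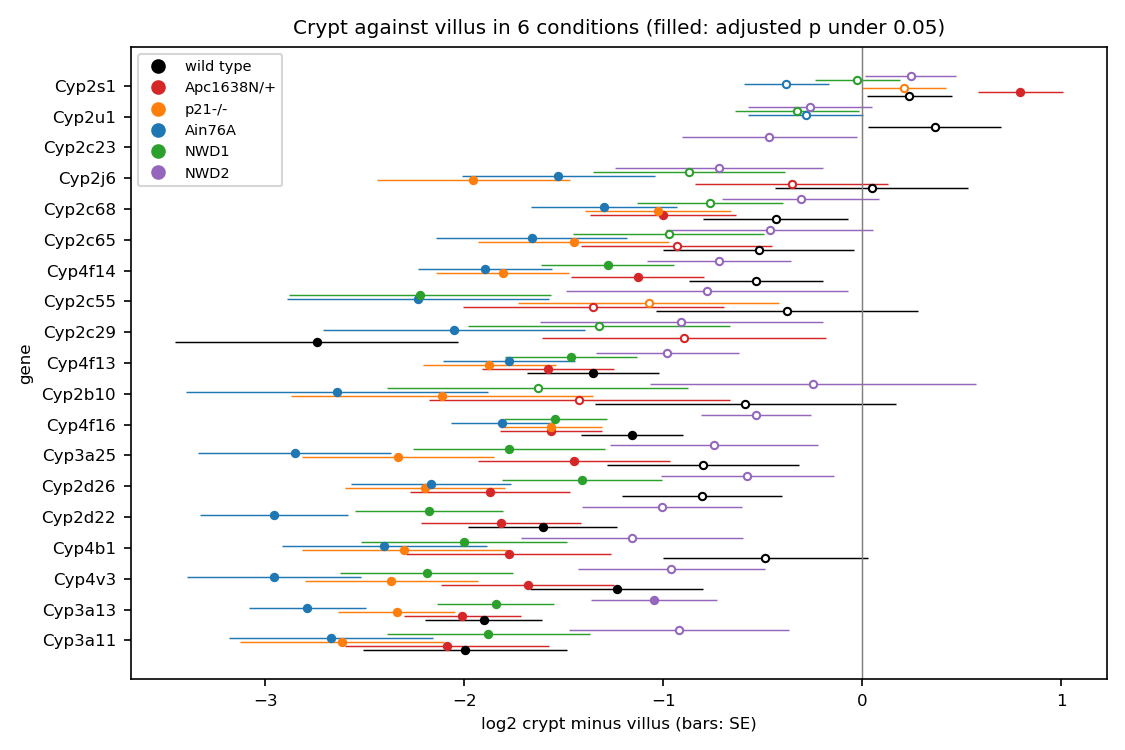
Log2 difference between crypts and villi (horizontal axis, crypt minus villus, bars show the SE) for 19 tested P450 genes (vertical axis) in 6 conditions; filled points have an adjusted p under 0.05 by limma. Most points lie below 0, Cyp3a13 is filled in 6 of 6 conditions, and Cyp2s1 is filled above 0 in Apc1638N/+ mice.

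Among the Cyp3a genes, Cyp3a13 stood at 12.28, 13.67, 12.91 and 13.48 in wild-type crypts and at 15.09, 15.22, 15.16 and 14.48 in wild-type villi. The groups did not overlap, and the crypt minus villus difference was -1.90 ± 0.29 (log2, SE, adjusted p = 2.11e-06). On Ain76A its crypt arrays lay at 12.18, 12.64, 12.34 and 11.80 and its villus arrays at 15.09, 15.24, 14.93 and 14.86. There too the groups did not overlap, and the difference was -2.79 ± 0.29 (adjusted p = 5.49e-10). On NWD2 the crypt arrays lay at 12.78, 13.58, 14.48 and 13.65 and the villus arrays at 14.05, 14.81 and 15.15. Here the tissues overlapped, and the difference was -1.05 ± 0.32 (adjusted p = 0.0206), a call lost without NWD2 crypt array 1, NWD2 villus array 2 or NWD2 villus array 3. Group means of Cyp3a13 ran from 14.67 to 15.03 in villi and from 12.24 to 13.62 in crypts, with Ain76A lowest and NWD2 highest among the crypt groups.

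Cyp3a11, the main target of PXR, had group means of 15.52 to 15.80 in villi and of 12.90 to 14.69 in crypts. Its crypt arrays on Ain76A, at 12.92, 14.12, 14.03 and 11.19, were widely spread, while its villus arrays on NWD1, at 15.73, 15.84, 15.75 and 15.88, were close together. The crypt minus villus difference was -2.00 ± 0.51 in wild type (adjusted p = 0.00145), -2.67 ± 0.51 on Ain76A (adjusted p = 2.82e-05) and -0.92 ± 0.55 on NWD2 (adjusted p = 0.258). Cyp3a25, another enzyme of the subfamily, stood at 11.17, 12.19, 12.07 and 10.62 in Ain76A crypts and at 14.74, 15.02, 14.21 and 13.49 in Ain76A villi. These groups did not overlap, with a difference of -2.85 ± 0.48 (adjusted p = 4.11e-06). In wild type, at 11.54, 13.69, 12.46 and 13.56 in crypts and 13.38, 14.06, 13.45 and 13.57 in villi, the tissues overlapped and the difference of -0.80 ± 0.48 did not pass (adjusted p = 0.169). Cyp3a44 had a value on 22 of 23 villus arrays and on 10 of 24 crypt arrays.

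In family 4, the Cyp4f subfamily hydroxylates fatty acids and leukotrienes. Cyp4f16 stood at 10.33, 11.19, 10.54 and 10.48 in wild-type crypts and at 12.20, 11.79, 11.60 and 11.56 in wild-type villi, without overlap (-1.16 ± 0.26, adjusted p = 0.000322). Cyp4f13 stood at 8.32, 10.45, 9.80 and 9.67 in wild-type crypts and at 11.10, 10.99, 10.74 and 10.82 in wild-type villi (-1.35 ± 0.33, adjusted p = 0.000964). Cyp4f14, at 12.42, 13.06, 13.11 and 12.79 in Ain76A crypts and 14.76, 14.64, 14.84 and 14.74 in Ain76A villi, did not overlap there (-1.90 ± 0.34, adjusted p = 8.13e-06). Its Ain76A villus arrays had an SD of 0.08 log2 units, so this gene was close to constant in that group. Its wild-type difference of -0.53 ± 0.34 did not pass (adjusted p = 0.187).

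Cyp4v3, a fatty acid hydroxylase, was measured by 2 probe sets, of which the better measured is of a design that can also match related transcripts. That one stood at 11.52, 12.40, 12.26 and 10.84 in Ain76A crypts and at 15.02, 15.12, 14.44 and 14.27 in Ain76A villi, without overlap. It differed by -2.96 ± 0.44 on Ain76A (adjusted p = 3.4e-07) and by -1.23 ± 0.44 in wild type (adjusted p = 0.018), the latter lost without wild-type crypt array 1, wild-type crypt array 3 or wild-type villus array 2. The other probe set gave -3.07 ± 0.59 on Ain76A (adjusted p = 2.86e-05) and -0.17 ± 0.59 in wild type (adjusted p = 0.828), so the probe sets differed in wild type. Cyp4b1, which acts on fatty acids and on some plant toxins, stood at 9.52, 10.29, 10.26 and 9.51 in Ain76A crypts and at 12.65, 12.95, 11.71 and 11.88 in Ain76A villi, without overlap (-2.40 ± 0.52, adjusted p = 0.000135). Its wild-type arrays, at 8.83, 11.68, 10.22 and 11.40 in crypts and 10.82, 11.47, 10.68 and 11.12 in villi, overlapped (-0.49 ± 0.52, adjusted p = 0.449).

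In family 2, 2 of 8 Cyp2d genes, of a subfamily known for drug oxidation, passed the filter. Cyp2d22 stood at 7.89, 8.74, 8.58 and 7.93 in Ain76A crypts and at 11.29, 11.57, 11.15 and 10.96 in Ain76A villi, without overlap. Its difference was -2.96 ± 0.37 on Ain76A (adjusted p = 2.68e-08) and -1.61 ± 0.37 in wild type (adjusted p = 0.000574). Cyp2d26 stood at 11.61, 12.38, 12.25 and 11.53 in Ain76A crypts and at 14.31, 14.61, 14.17 and 13.37 in Ain76A villi, again without overlap (-2.17 ± 0.40, adjusted p = 1.72e-05). Neither passed on NWD2, with -1.01 ± 0.40 for Cyp2d22 (adjusted p = 0.0811) and -0.58 ± 0.43 for Cyp2d26 (adjusted p = 0.379).

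Of the other family 2 genes, 5 of 11 in Cyp2c, 1 of 5 in Cyp2j and 1 of 4 in Cyp2b passed the filter. Cyp2c29, an arachidonic acid epoxygenase, had a value on 3 wild-type crypt arrays, at 6.01, 8.17 and 6.86, and on 4 villus arrays, at 9.86, 11.04, 9.11 and 9.02. These did not overlap and differed by -2.74 ± 0.71 (adjusted p = 0.00179). Cyp2c55, another lipid-oxidizing Cyp2c enzyme, was lower in crypts on Ain76A by -2.23 ± 0.66 (adjusted p = 0.00386) and on NWD1 by -2.22 ± 0.66 (adjusted p = 0.00547). Its wild-type arrays, at 8.47, 9.74, 8.31 and 9.61 in crypts and 10.16, 10.58, 8.46 and 8.45 in villi, overlapped. On Ain76A, Cyp2c65 differed by -1.66 ± 0.48 (adjusted p = 0.00323) and Cyp2c68 by -1.30 ± 0.37 (adjusted p = 0.00265).

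Cyp2j6, of the other epoxygenase subfamily, differed by -1.96 ± 0.48 in p21-/- mice (adjusted p = 0.00112) and by -1.53 ± 0.48 on Ain76A (adjusted p = 0.00695). A second Cyp2j6 probe set gave -0.85 on Ain76A, which did not pass, and had too few values in p21-/- crypts to test. In wild type the best measured probe set stood at 9.26, 10.25, 9.40 and 9.60 in crypts and at 8.98, 10.62, 8.86 and 9.86 in villi. These overlapped, at a difference of 0.05 ± 0.48. Cyp2b10 differed by -2.64 ± 0.76 on Ain76A (adjusted p = 0.00308) and by -2.11 ± 0.76 in p21-/- mice (adjusted p = 0.0212). Its wild-type arrays ranged from 8.64 to 12.82 in crypts and from 10.59 to 12.20 in villi.

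Cyp2s1, a P450 of epithelia and an Ahr target, and the fatty acid hydroxylase Cyp2u1 did not pass the test as higher in villi in any condition tested. In Apc1638N/+ mice Cyp2s1 stood at 10.91, 10.78, 11.64 and 11.19 in crypts and at 10.54, 10.22, 10.02 and 10.57 in villi. The tissues did not overlap, and crypts were higher by 0.80 ± 0.21 (adjusted p = 0.00258). On Ain76A its arrays, at 10.68, 10.56, 10.35 and 10.75 in crypts and 11.21, 10.98, 10.76 and 10.92 in villi, did not overlap in the other direction, but the difference of -0.38 ± 0.21 did not pass (adjusted p = 0.123). Over its 4 conditions Cyp2u1 had differences from -0.33 to 0.36.

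**Figure D3:**
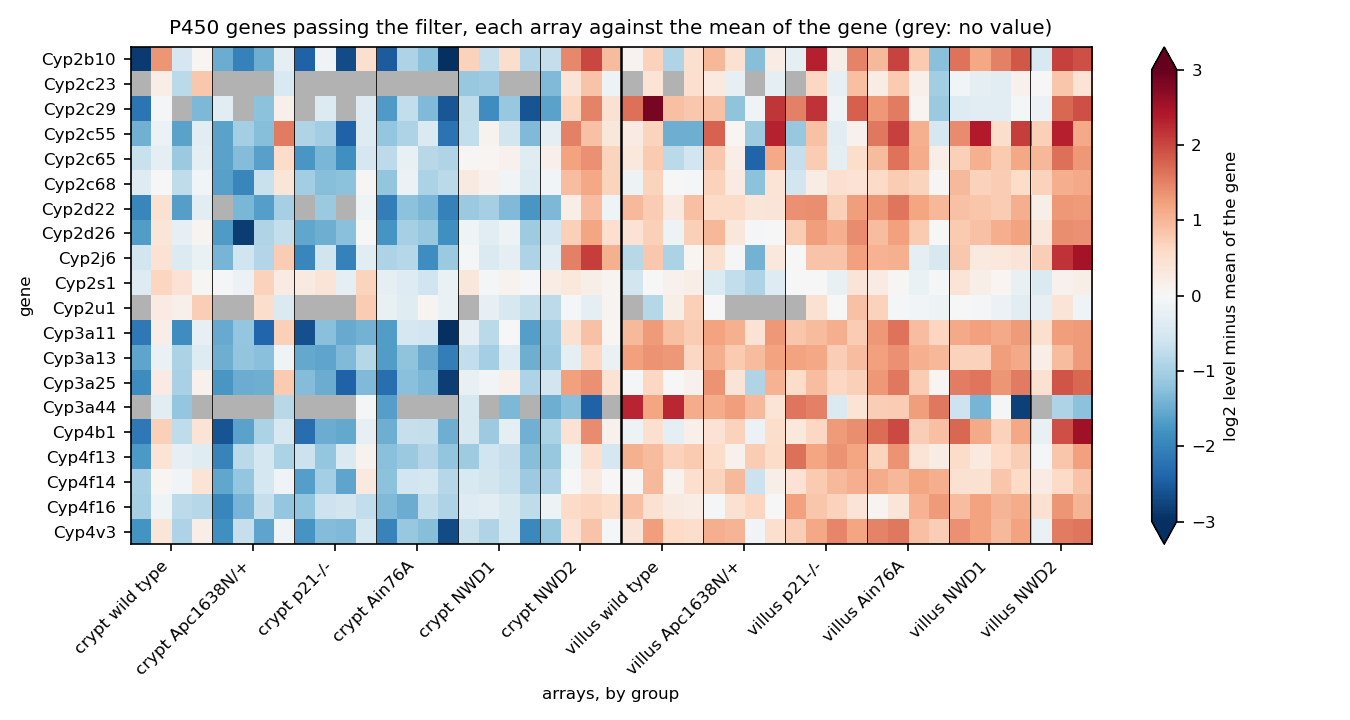
Log2 level of the 20 P450 genes that passed the filter (vertical axis, best measured probe set each) on the 47 arrays (horizontal axis, grouped), as the difference from the gene's mean over arrays (colour); grey marks no value. Of the 15 genes on every array, 13 are highest on array 3 and 14 lowest on array 1 within NWD2 crypts, and 15 are lowest on array 1 within NWD2 villi.

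Within several groups most members were highest or lowest on the same array, but not in all. In NWD1 villi no array was the highest or the lowest for more than 5 of 15 genes. Of the 15 genes with a value on every array, 13 had their highest wild-type crypt value on array 2 and 12 their lowest on array 1. In NWD2 crypts 13 of 15 were highest on array 3 and 14 of 15 lowest on array 1, and in NWD2 villi 15 of 15 were lowest on array 1. Mean enterocyte marker levels moved with the members in wild-type crypts, NWD2 crypts and NWD2 villi. They were 14.80 on wild-type crypt array 2 and 13.14 on array 1, and 15.15 on NWD2 crypt array 3 and 14.03 on array 1. In NWD2 villi they were 14.99 on array 1 and 15.39 and 15.40 on the other arrays. In wild-type villi 12 of 15 genes were highest on array 2, but the enterocyte mean was 14.81 there and 15.08 on array 4. The SD over arrays was larger in crypts than in villi for 11 of the 15 genes in wild type, 11 in Apc1638N/+, 13 in p21-/-, 13 on NWD1 and 9 on NWD2, and for 6 on Ain76A. The median SD in wild type was 0.75 in crypts and 0.36 in villi.

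The diet comparison set NWD1 and NWD2 beside Ain76A at 1 year, and both comparisons share the Ain76A arrays. In NWD2 crypts 15 of 23 member probe sets (11 of 18 genes) rose and 0 fell by limma, where 5.65% of all 13833 probe sets tested rose. The median over the 18 genes was 1.56 and that over all probe sets -0.06. The genes that rose were Cyp3a11, Cyp3a13 and Cyp3a25 in family 3, Cyp2b10, Cyp2c65, Cyp2c68, Cyp2d22, Cyp2d26 and Cyp2j6 in family 2, and Cyp4f16 and Cyp4v3 in family 4. With the deposited scaling 1063 of all probe sets rose and 197 fell, against 782 and 440 here, and 15 member probe sets were called again. Non-overlapping groups with NWD2 higher were seen for 15 member probe sets, against 10.8% of all.

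In family 3, Cyp3a25 stood at 12.89, 14.66, 14.80 and 13.86 in NWD2 crypts against 11.17, 12.19, 12.07 and 10.62 on Ain76A. The groups did not overlap, and the rise was 2.54 ± 0.48 (5.83-fold, adjusted p = 0.000964). Cyp3a13, at 12.78, 13.58, 14.48 and 13.65 against 12.18, 12.64, 12.34 and 11.80, also did not overlap and rose by 1.38 ± 0.29 (adjusted p = 0.0025). Cyp3a11, at 13.56, 15.06, 15.48 and 14.67 against 12.92, 14.12, 14.03 and 11.19, overlapped and rose by 1.63 ± 0.51 (adjusted p = 0.0386). In family 4, Cyp4f16 had the smallest p of the members, at 11.19, 11.91, 11.97 and 11.88 against 10.00, 9.85, 10.59 and 10.41. Every NWD2 array lay above every Ain76A array, and the rise was 1.52 ± 0.26 (2.88-fold, adjusted p = 0.000386). A second Cyp4f16 probe set, of a design that can match related transcripts, gave 0.59 ± 0.28 (adjusted p = 0.166). Cyp4v3, at 12.41, 13.96, 14.39 and 13.49 against 11.52, 12.40, 12.26 and 10.84, rose by 1.80 ± 0.44 (adjusted p = 0.00728), and its other probe set by 2.29 ± 0.59 (adjusted p = 0.0119).

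In family 2, Cyp2b10 had the largest rise of a gene's best measured probe set, one of a design that can match related transcripts, at 10.78, 12.95, 13.50 and 12.45 on NWD2 against 9.01, 10.58, 10.24 and 8.16 on Ain76A. The groups did not overlap, and the rise was 2.92 ± 0.76 (7.58-fold, adjusted p = 0.0126). Its other probe sets gave 2.96 ± 0.76 and 2.47 ± 0.76 (adjusted p = 0.0115 and 0.0352). Cyp2j6, at 9.49, 11.31, 11.87 and 10.86 against 8.87, 8.95, 7.94 and 8.69, did not overlap and rose by 2.27 ± 0.48 (adjusted p = 0.00258), and its second probe set by 2.48 ± 0.51 (adjusted p = 0.00226). Cyp2d26, at 12.82, 14.10, 14.56 and 13.88 against 11.61, 12.38, 12.25 and 11.53, rose by 1.90 ± 0.40 (adjusted p = 0.00244). Cyp2d22, at 8.61, 10.17, 10.90 and 9.82 against 7.89, 8.74, 8.58 and 7.93, rose by 1.59 ± 0.37 (adjusted p = 0.00612). In both Cyp2d genes NWD2 array 1 was the lowest of its group. Cyp2c68, at 11.39, 12.42, 12.65 and 12.15 against 10.30, 11.30, 10.52 and 10.68, rose by 1.45 ± 0.37 (adjusted p = 0.0101). Cyp2c65, at 13.22, 14.27, 14.44 and 13.73 against 12.29, 12.84, 12.24 and 12.17 on its only probe set, also of a design that can match related transcripts, rose by 1.53 ± 0.48 (adjusted p = 0.038). Those that did not pass included Cyp2c29 at 1.84 ± 0.66, Cyp2c55 at 1.80 ± 0.66, Cyp4b1 at 1.34 ± 0.52 and Cyp2s1 at 0.56 ± 0.21 (adjusted p = 0.072, 0.0753, 0.093 and 0.0865).

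Markers of enterocytes were higher in the same crypts. Of 14 enterocyte genes tested, 11 rose on NWD2 and 0 fell, with a median of 1.41; the sugar-digesting enzymes Treh and Lct rose by 2.26 ± 0.46 and 1.95 ± 0.43 (adjusted p = 0.00194 and 0.00362). Their summed level, as log2, was 18.61 to 19.31 on NWD2 crypt arrays and 17.32 to 18.24 on Ain76A crypt arrays. Of 9 proliferation genes tested, 3 fell and 0 rose. The mean log2 level of the 4 with a value on every array was 11.04 to 12.28 against 12.56 to 13.02. The part of these marker differences in the P450 rises was not tested. Without NWD2 crypt array 3 the count of member probe sets called was 6, and without NWD2 crypt array 2 it was 9. Without array 3 and the 5 arrays named above it was 9. None of these 5 is an NWD2 or Ain76A crypt array, so they enter this comparison only through the spread estimated over all groups. The calls lost without array 3 were those of Cyp2b10, Cyp2c65, Cyp2c68, Cyp2d22, Cyp3a11 and Cyp4v3.

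**Figure D4:**
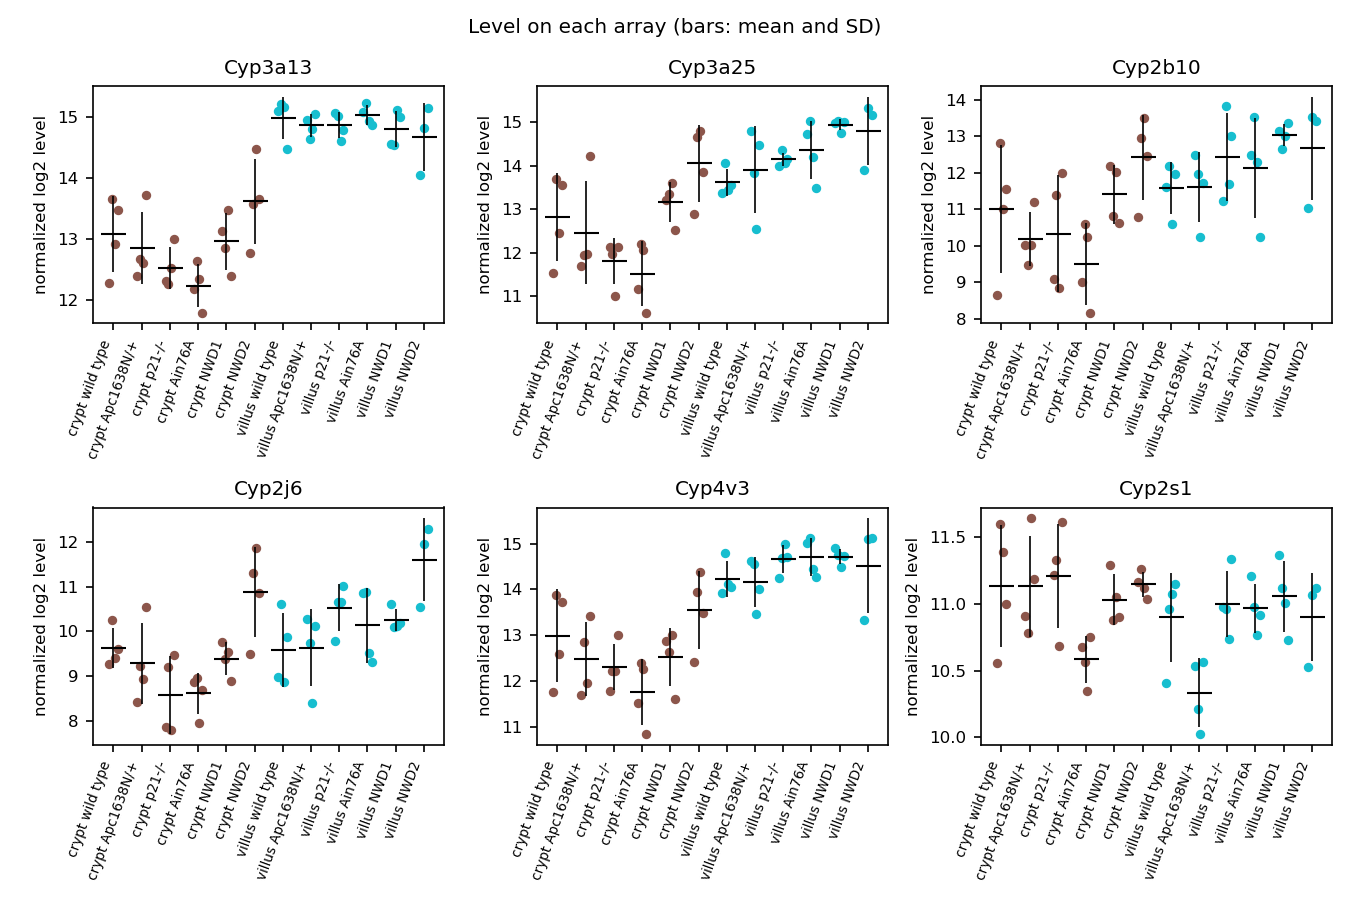
Normalized log2 level of 6 P450 genes (panels) on each array (points) in the 12 groups, with the group mean and SD; the vertical range differs between panels. NWD2 crypt arrays lie above Ain76A crypt arrays without overlap for Cyp3a13, Cyp3a25, Cyp2b10, Cyp2j6, Cyp4v3 and Cyp2s1, of which Cyp2s1 did not pass (adjusted p = 0.0865).

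In NWD1 crypts limma called 0 of 23 member probe sets and 0.0% of all 13922 tested. At an unadjusted p under 0.05 there were 8 member probe sets and 443 (3.18%) of all. Cyp3a25 stood at 13.20, 13.35, 13.60 and 12.52, all above the Ain76A arrays (1.65 ± 0.48, adjusted p = 0.9997). Cyp2b10, at 12.19, 10.81, 12.03 and 10.62 on its best measured probe set, did not overlap with Ain76A, whose highest array stood at 10.58 (1.91 ± 0.76, adjusted p = 0.9997). Its other probe sets overlapped, with NWD1 down to 10.22 and Ain76A up to 10.24 on one, and 9.03 and 9.19 on the other. Cyp2s1 did not overlap, at 11.30, 10.88, 11.05 and 10.90 against 10.68, 10.56, 10.35 and 10.75 (0.45 ± 0.21). The share of all probe sets without overlap is not given for this comparison. Over the 18 genes the median was 0.64, and that of the 14 enterocyte markers was 0.73 with 0 called.

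In villi no member was called on either diet. On NWD1 limma called 0 of 26 member probe sets, against 0.0647% of all, and 1 at an unadjusted p under 0.05, against 5.11%. That one, Cyp3a44 of the Cyp3a subfamily, stood at 7.22, 6.46, 7.82 and 5.04 on NWD1 against 8.58, 8.60, 9.09 and 9.44 on Ain76A. The groups did not overlap, with a difference of -2.29 ± 0.49 (adjusted p = 0.0777). With the deposited scaling, and without NWD1 villus array 3, the count of member probe sets called was 1. On NWD2 Cyp3a44 had a value on 2 of 3 villus arrays, at 6.92 and 6.62, too few to test.

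On NWD2 limma called 0 of 25 in villi, against 0.228% of all, and 2 at an unadjusted p under 0.05, against 12.2%. Both were probe sets of Cyp2j6, with differences of 1.46 ± 0.52 and 1.80 ± 0.55 (adjusted p = 0.218 and 0.148). On the first, NWD2 villi stood at 10.55, 11.96 and 12.30 and Ain76A villi at 10.86, 10.87, 9.52 and 9.32, with overlap. The difference between NWD2 and Ain76A in the crypt minus villus fold was called for 0 of 23, against 0.183% of all, and for 11 at an unadjusted p under 0.05, against 19.4%. With the replicate number as a block, 6 of 23 were called. The labels do not say that same-numbered crypt and villus arrays are pairs, on NWD2 or on Ain76A. For Cyp3a13 that difference was 1.74 ± 0.43 (adjusted p = 0.0565). Between NWD1 and Ain76A it was called for 0 of 23, against 0.0% of all, and for 1 at an unadjusted p under 0.05, against 2.51%.

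**Figure D5:**
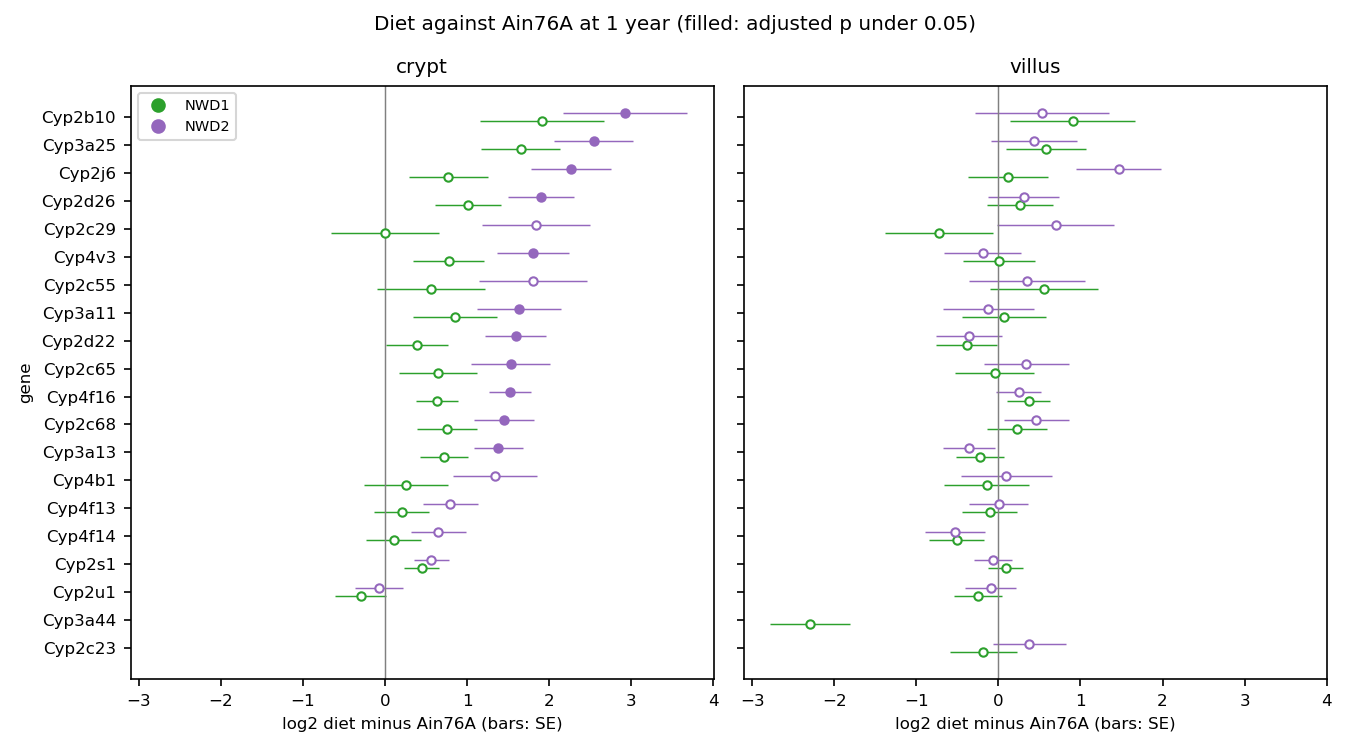
Log2 difference of NWD1 (green) and NWD2 (purple) from Ain76A at 1 year for each tested P450 gene, in crypts and in villi (panels); bars show the SE, and filled points have an adjusted p under 0.05 by limma. In crypts 11 of 18 genes are filled on NWD2 and 0 of 18 on NWD1, and in villi 0 are filled.

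For the genotypes, both of which share the wild-type arrays, no member that passed the filter was called in either tissue. In Apc1638N/+ crypts limma called 0 of 21, against 0.0957% of all, and 4 at an unadjusted p under 0.05, against 13.3%. Cyp2d26 stood at 11.69, 10.52, 12.49 and 12.67 there against 11.70, 13.75, 13.13 and 13.46 in wild type, with overlap (-1.17 ± 0.40, adjusted p = 0.188). In p21-/- crypts 0 of 19 were called by limma, against 4.17% of all, and 4 at an unadjusted p under 0.05, against 19.5%. Cyp4f14 had a median of 12.34 there, from 11.998 to 13.93, against 12.68, 13.71, 13.57 and 14.06, with overlap (-0.85 ± 0.34, adjusted p = 0.135). The median over genes was -0.47 in Apc1638N/+ crypts and -0.69 in p21-/- crypts, and that of the enterocyte markers was -0.46 and -0.40 with 0 called.

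In Apc1638N/+ villi 0 of 24 were called by limma, against 0.0% of all, and 2 at an unadjusted p under 0.05, against 5.11%. There Cyp2s1 differed by -0.56 ± 0.21 (adjusted p = 0.834). In p21-/- villi 0 of 25 were called by limma, against 0.039% of all, and 1 at an unadjusted p under 0.05, against 11.4% (the second Cyp2j6 probe set at 1.40 ± 0.51, adjusted p = 0.282). The difference from wild type in the crypt minus villus fold was called for 0 of 21 in Apc1638N/+ mice, against 0.0% of all, and for 0 at an unadjusted p under 0.05, against 7.0%. In p21-/- mice it was called for 0 of 19, against 1.53% of all, and for 6 at an unadjusted p under 0.05, against 17.6%, with the smallest p for the second Cyp4v3 probe set (-2.47 ± 0.83, adjusted p = 0.102).

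The members with the smallest p in the opposite direction were further from a call. In crypts these were Cyp2c29 at 0.72 ± 0.76 in Apc1638N/+ mice, Cyp2s1 at 0.08 ± 0.21 in p21-/- mice and Cyp2u1 at -0.30 ± 0.31 on NWD1 (adjusted p = 0.72, 0.894 and 0.9997). In villi they were Cyp2c55 at 1.28 ± 0.66 in Apc1638N/+ mice and Cyp3a44 at -0.95 ± 0.49 in p21-/- mice (adjusted p = 0.949 and 0.46). On the diets they were Cyp4f16 at 0.37 ± 0.26 in NWD1 villi and Cyp4f14 at -0.53 ± 0.36 in NWD2 villi (adjusted p = 0.9995 and 0.576).

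Between wild type at 3 months and Ain76A at 1 year, age, time on the diet and arm of the study coincide and cannot be told apart. In crypts 2 of 23 member probe sets were lower at 1 year by limma, against 6.68% of all. They were Cyp3a13, with a difference of -0.85 ± 0.29 (adjusted p = 0.0438), and Cyp4v3, with -1.24 ± 0.44 (adjusted p = 0.0463), and in both the groups overlapped. The count was 0 without wild-type crypt array 2, wild-type crypt array 4, Ain76A crypt array 1 or Ain76A crypt array 4, 1 without wild-type crypt array 3 or Ain76A crypt array 3, and 10 without wild-type crypt array 1. Of the enterocyte markers 8 of 14 were lower in the same crypts, and their part in the P450 differences was not tested.

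In villi 1 of 25 was higher at 1 year, against 7.49% of all: the second Cyp4v3 probe set, by 1.67 ± 0.59 (adjusted p = 0.0466). This call was lost without any 1 of 6 of the 8 arrays, wild-type villus arrays 1, 3 and 4 and Ain76A villus arrays 1, 2 and 3, and the count was 3 without wild-type villus array 2 and 2 without Ain76A villus array 4. Marker levels moved in the same villi: all 7 intraepithelial lymphocyte markers tested were lower at 1 year. The mean of the 3 with a value on every array (Cd8a, Gzma and Ptprc) was 13.03 to 14.16 in wild type and 10.93 to 11.86 on Ain76A. Of the 14 enterocyte markers 2 were higher at 1 year, with list means of 14.49 to 15.08 and 15.15 to 15.34. Neither of these means overlapped between the groups, and the part of the markers in the P450 values was not tested. The crypt minus villus fold was more negative at 1 year for 2 of 23, against 5.26% of all called in that direction. These were the second Cyp4v3 probe set, by -2.90 ± 0.83 (adjusted p = 0.0232), and Cyp3a25, by -2.05 ± 0.68 (adjusted p = 0.0454). Their count was 0 without wild-type crypt array 2, wild-type villus array 3 or Ain76A villus array 2, and 8 without wild-type crypt array 1.

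Members below the filter are described by where they had values. Cyp2e1, the ethanol-oxidizing P450, had a value on 21 of 24 crypt arrays and on 5 of 23 villus arrays. Its crypt values were 9.11, 7.77, 7.45 and 7.48 on Ain76A and 7.05, 6.52, 7.15 and 6.85 on NWD1, which did not overlap (-1.06 ± 0.33 in the fit without the filter, adjusted p = 0.9998). As Cyp2e1 is best known from liver, hepatocyte markers were read beside it: of 7, Ahsg and Fgb were blank on every array, Alb had a value on 2 crypt and 2 villus arrays, Tat on 0 and 1, Apoh on 4 and 9, Serpina1b on 17 and 23 and Ttr on every array. Ttr stood at 10.09 to 11.42 in Ain76A crypts, with its highest value on array 1 as for Cyp2e1, at 9.78 to 10.73 in NWD1 crypts and at 8.42 to 8.997 in Ain76A villi. Both Ain76A and NWD1 crypts thus had Ttr above Ain76A villi. In wild type Ttr overlapped between the tissues, at 9.46 to 10.36 in crypts and 9.22 to 10.66 in villi. There Cyp2e1 had values on 4 of 4 crypt arrays and on no villus array. Apoh, Tat and Serpina1b instead had a value on more villus than crypt arrays. The part of these markers in the Cyp2e1 values was not tested. Cyp2j9 had values on 3 of 4 NWD2 crypt arrays, at 8.32, 8.79 and 8.16, and on 0 of 4 Ain76A crypt arrays. In villi it had values on 3 of 3 NWD2 arrays, at 6.82, 8.26 and 8.59, and on 1 of 4 Ain76A arrays, at 7.27. Cyp2r1, a vitamin D 25-hydroxylase, had values on 4 of 4 NWD2 crypt arrays, at 6.13, 6.68, 7.43 and 6.95, and on 2 of 4 Ain76A crypt arrays, at 6.21 and 5.67. Both genes thus had a value on more NWD2 than Ain76A crypt arrays, while Cyp2c54 had values on 3 of 4 Ain76A and 2 of 4 NWD2 crypt arrays. Over the whole array Ain76A crypts had values for 20287 to 23355 probe sets and NWD2 crypts for 21038 to 22897. The share of all probe sets with more values in NWD2 crypts is not given here.

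Cyp2f2, a P450 of airway cells, had values on 4 of 4 wild-type villus arrays, at 7.25, 6.13, 7.55 and 7.58, and on 1 of 4 Ain76A villus arrays. Over the whole array these villi had values for 17078 to 19466 and 20544 to 21667 probe sets. Cyp2b9 had values on 4 of 4 wild-type crypt arrays, at 5.43, 7.58, 6.62 and 6.37, and on 0 of 4 Apc1638N/+ crypt arrays. In p21-/- crypts it had a value on 1 of 4 arrays, at 6.38. Over the whole array wild-type crypts had values for 19091 to 22078 probe sets and Apc1638N/+ crypts for 15476 to 21914. Of the Apc1638N/+ crypt arrays 3 of 4 lay below every wild-type crypt array. Cyp4a31, of the subfamily driven by PPAR alpha, had values on 17 of 24 crypt arrays and 13 of 23 villus arrays. Cyp2c54 was called for p21-/- in the fit without the filter: p21-/- crypts stood at 8.84, 8.58 and 7.89 on 3 arrays, above wild-type crypts at 6.22, 7.16, 6.83 and 6.49 (1.76 ± 0.35, limma adjusted p = 0.00629). The remaining p21-/- crypt array had no value. Over the whole array p21-/- crypts had values for 14814 to 17373 probe sets, below the 19091 to 22078 of wild-type crypts. With the filter 4.17% of all probe sets were called in this comparison, and the share without it is not given here.

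Other genes of P450 function were read from lists. Of 7 electron donors 5 had a probe set, and P450 reductase (Por) was not among them. Of these 5, 4 were lower in Ain76A crypts than villi, and cytochrome b5 reductase (Cyb5r3) differed by -1.94 ± 0.27 (adjusted p = 1.47e-07). In NWD2 crypts 2 of 5 rose, Cyb5r3 by 1.07 ± 0.27 and cytochrome b5 type B (Cyb5b) by 0.85 ± 0.19 (adjusted p = 0.0114 and 0.00358). The sensor list held 16 genes. Of 14 tested on Ain76A 6 were lower in crypts, PXR (Nr1i2) by -1.26 ± 0.25 and CAR (Nr1i3) by -1.12 ± 0.32 (adjusted p = 5.71e-05 and 0.00277). In NWD2 crypts 2 of 14 rose, CAR by 1.35 ± 0.32 and the oxysterol receptor Nr1h3 by 0.78 ± 0.25 (adjusted p = 0.00616 and 0.0423), while PXR stood at 0.62 ± 0.25 (adjusted p = 0.116).

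The soluble epoxide hydrolase Ephx2, which opens the epoxides made by Cyp2c and Cyp2j enzymes, was 1 of 2 epoxide hydrolases tested that differed on Ain76A, at -2.30 ± 0.32 (adjusted p = 1.11e-07), and it rose by 1.54 ± 0.32 in NWD2 crypts (adjusted p = 0.00209). Heme genes were mixed: of 8 tested on Ain76A 2 were higher in crypts and 1 was lower. The heme synthesis enzyme Urod was higher in crypts by 1.04 ± 0.17 (limma adjusted p = 1.98e-06). In NWD2 crypts 0 of 9 heme genes changed. P450 genes of families 5 and above numbered 16, of which 2 could be tested on Ain76A. The sterol hydroxylase Cyp27a1 was lower in crypts by -2.01 ± 0.49 and Cyp20a1 higher by 1.75 ± 0.40 (adjusted p = 0.00061 and 0.000331), and 0 of the 2 changed in NWD2 crypts.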

How the data were processed

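Total RNA from crypts and villi was hybridised as labelled cRNA to Affymetrix expression arrays, 47 in all. The authors deposited 1 table of log2 values, made with GCOS per the submitters' processing notes, whose version and settings are not given in the sources used here. Blank cells (55.2% of 45101 probe sets by 47 arrays) were kept blank. Values were quantile normalized with the 8404 probe sets that had a value on each of the 47 arrays; other values were placed by interpolation. Probe sets above the array's median on at least 3 arrays were kept (14919, controls left out). The limma package (version 3.58.1, R 4.3.3) fitted 1 model over the 12 groups, with moderated variances that follow the mean level. A probe set was tested where each compared group had at least 3 values (fewer by as many as were left out, where an alternative left arrays out), p-values were adjusted by the Benjamini-Hochberg method over all probe sets tested in a comparison, and a call is an adjusted p under 0.05. The procedure was tested on simulated data.

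Genes were named where GEO's platform annotation gave 1 symbol (34958 probe sets, against 932 with several and 9160 with none). Another 4 probe sets that name several genes of these families, and 1 for a pseudogene, were left out. A gene is shown by its probe set with most values, then the highest mean level. Named are members called in a comparison, at most 12 by smallest adjusted p, or, with none called, the member with the smallest p in each direction. Members and gene lists were chosen with earlier results of these data known. The number of arrays limits the precision. The labels do not say that replicate numbers pair crypt and villus arrays. On NWD2 same-numbered arrays deviated together (r = 0.48, 0.28 and 0.46). So did some in other conditions (r = 0.54 for Apc1638N/+ array 4) and some of different groups (r = 0.57 for array 3 of Apc1638N/+ and wild-type crypts). These correlations thus cannot decide which arrays are pairs, and the main fit used no pairing.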

Additional observations from a re-analysis of the deposited data

Results flagged for a closer look

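In groups of 4 arrays, 5 of 182 tests over 17 genes set 1 array apart from the other 3 by Dixon's criterion, and chance gives about 1 in 20. In Apc1638N/+ crypts, array 4 was high for Cyp2c65, at 13.62 (13.6196) against 11.44 to 11.76 on the other arrays, and for Cyp3a25, at 14.22 (14.2237) against 11.70 to 11.97. The enterocyte marker mean on that array was 14.28, the highest of its group. Cyp3a13 was low on wild-type villus array 4, at 14.48 (14.4805) against 15.09 to 15.22. Cyp3a25 was low on p21-/- crypt array 3, at 11.01 (11.0122) against 11.96 to 12.14. Cyp4f16 was low on NWD2 crypt array 1, at 11.19 (11.1867) against 11.88 to 11.97.

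A test of the difference between Ain76A at 1 year and wild type at 3 months in the crypt minus villus fold was passed by the second Cyp4v3 probe set (-2.90, limma adjusted p = 0.0232) and by Cyp3a25 (-2.05, limma adjusted p = 0.0454).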

How the results depend on the processing

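Of 97 called member differences refitted under the alternatives, 1393 fits in all, 1250 stayed called, 143 kept the direction but were not called, and 0 reversed. The numbers of member probe sets called moved as follows, and the cause was not tested. Leaving out the 5 arrays named in the report (chosen after seeing the data) gave 14 for the axis in wild type, 8 for the axis on NWD2, 0 for crypts at 1 year against 3 months and 0 for the difference of the axis between Ain76A and wild type. Leaving out NWD2 crypt array 3 as well gave 8 for the axis on NWD2 and 9 for NWD2 crypts against Ain76A. None of the 5 arrays is in the 2 groups of the latter comparison. Fitting only the groups compared gave 9 for the axis in Apc1638N/+, 0 for the axis on NWD2, 0 and 4 for crypts and villi at 1 year against 3 months, and 4 for the difference of the axis between NWD2 and Ain76A. Without the filter 1 was called in p21-/- crypts (Cyp2c54). With blanks at the lowest value of the array, 1 was called in p21-/- crypts, 1 and 0 for crypts and villi at 1 year, and 1 each for the difference of the axis between p21-/- and wild type and between NWD2 and Ain76A. The deposited scaling gave 1 in NWD1 villi, 2 for villi at 1 year, and 1 and 5 for the difference of the axis between NWD2 and Ain76A and between Ain76A and wild type. With 1 probe set per gene the counts were 1 and 0 for crypts and villi at 1 year and 1 for each of these same differences of the axis. The replicate block, on numbers that the labels do not call pairs, gave 1 on the NWD2 axis as before and 0 for crypts at 1 year. For the difference of the axis it gave 4 between p21-/- and wild type, 6 between NWD2 and Ain76A and 9 between Ain76A and wild type.

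Leaving out 1 array at a time, the count ranged from 0 to 8 for the axis on NWD2, from 6 to 19 for NWD2 crypts, from 0 to 1 for Apc1638N/+ crypts, p21-/- crypts and NWD1 villi, from 0 to 10 and 0 to 3 for crypts and villi at 1 year, and from 0 to 3, 0 to 6 and 0 to 8 for the difference of the axis between p21-/- and wild type, NWD2 and Ain76A, and Ain76A and wild type. With the deposited scaling the median of all probe sets moved by over 0.1 log2 units in several comparisons, for example from -0.14 to 0.02 on the wild-type axis, from -0.06 to 0.04 in NWD2 crypts and from 0.01 to -0.14 in p21-/- crypts. Over all probe sets, calls with crypts higher and lower on the wild-type axis were then 3036 and 2639 in place of 2553 and 3503, on the NWD2 axis 1612 and 741 in place of 1202 and 952, in p21-/- crypts 203 and 325 in place of 313 and 176, and in crypts at 1 year 864 and 1022 in place of 1267 and 909. With blank cells, low signals have no level, so members below the filter are limited by where they had a value.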
